A study of Mus musculus with 14 samples.

Results

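Bex6, Lrr1 and Clec4d are 3 of the 18194 genes measured here, and their signal became lower with increasing GFP label in mouse LSK cells (lineage-negative, Sca1+, Kit+ bone marrow cells, a population of hematopoietic stem and progenitor cells). The genes were selected on this very signal, among genes that passed limma's test, whose GFP4 and GFP0 arrays did not overlap, whose brighter end reached the table's median and whose probe set lacked the suffix _x_at. Within that filtered set all 3 stood among the 8 steepest negative slopes over the GFP levels, for which a rank correlation with level of at least 0.8 in size was also asked, and among the 10 lowest differences between GFP4 and GFP0. Slopes and end differences of the 3 genes are therefore given as descriptions, without a test. By the platform annotation 5 of the 45101 probe sets named exactly 1 of the 3 symbols: 1459923_at for Bex6, 1452458_s_at, 1427506_at and 1436922_at for Lrr1, and 1420804_s_at for Clec4d.

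The cells came from hCD34 x H2BGFP double transgenic mice on a C57BL/6 background (huCD34-tTA X Tet-O-H2B-GFP), in which the human CD34 promoter drives labelling of chromatin with GFP-tagged histone H2B. Doxycycline at 1 mg/ml in the drinking water, begun at an age of 6 to 8 weeks and kept for 12 weeks, switched labelling off in every animal, controls without doxycycline not being among the groups. A cell that divides dilutes its label, and the levels were ranked 0 to 4, with about 1 to 2 divisions between neighbouring levels. The arrays comprised 2 of GFP0, 3 of GFP1, 3 of GFP2, 2 of GFP3 and 4 of GFP4, so that GFP4 holds the cells with the most label left and GFP0 those with the least. The labels call the arrays biological replicates but name no animals, so each p-value refers to the variation among sorted samples, which may be technical, and the number of arrays limits the precision.

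The 3 genes belong to unrelated families. Bex6 is named as a member of the Bex (brain expressed X-linked) family of small proteins, although it lies on chromosome 16; its relative Bex3 is known for binding the p75 neurotrophin receptor; the Tceal genes are relatives of this family. Lrr1 is a leucine-rich repeat protein that serves as a substrate receptor of the CUL2 ubiquitin ligase. In frog egg extracts, worms and mouse embryonic stem cells this ligase marks Mcm7, a subunit of the CMG helicase (Cdc45, the Mcm2 to Mcm7 ring and GINS), so that the p97 unfoldase Vcp removes the helicase when DNA replication ends. Clec4d (also called MCL or Dectin-3) is a C-type lectin receptor of neutrophils, monocytes and macrophages that pairs with Clec4e (Mincle) and signals through the Fc receptor gamma chain Fcer1g, the kinase Syk and the adaptor Card9.

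Because the 3 genes moved in the same direction over the levels, the 250 bases before their annotated starts are shown from the RefSeq promoter table (GRCm38.p6), 5′ to 3′ on the plus strand, on which all 3 lie. Capitals mark matches to the motifs searched. The windows are chr16:32179550-32179799 for Bex6, chr12:69168564-69168813 for Lrr1 and chr6:123261857-123262106 for Clec4d.
Bex6: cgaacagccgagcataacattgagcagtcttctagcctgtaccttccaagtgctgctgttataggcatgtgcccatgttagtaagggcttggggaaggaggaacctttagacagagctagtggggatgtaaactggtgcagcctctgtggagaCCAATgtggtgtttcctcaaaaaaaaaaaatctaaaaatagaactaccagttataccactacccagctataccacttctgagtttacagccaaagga
Lrr1: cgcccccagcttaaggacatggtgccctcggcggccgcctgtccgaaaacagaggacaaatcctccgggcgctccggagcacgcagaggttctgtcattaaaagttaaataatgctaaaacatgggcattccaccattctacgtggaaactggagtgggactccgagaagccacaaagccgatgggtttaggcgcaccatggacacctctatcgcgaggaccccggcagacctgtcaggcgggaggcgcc
Clec4d: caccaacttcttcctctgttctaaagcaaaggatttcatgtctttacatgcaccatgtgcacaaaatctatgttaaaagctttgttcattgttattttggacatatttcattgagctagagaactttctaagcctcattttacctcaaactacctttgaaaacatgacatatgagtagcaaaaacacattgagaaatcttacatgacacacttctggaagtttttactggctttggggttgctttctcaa
The windows differ in base composition. GC content was 45.2% for Bex6, 58.4% for Lrr1 and 35.2% for Clec4d, against a median of 52.0% over 27025 genes. The window of Lrr1 held 18 CpG dinucleotides, that of Bex6 held 2 and that of Clec4d 0, against a median of 6. On both strands, 3 forms of the E2F motif were searched, TTTCCCGC, TTTGGCGC and TTTCGCGC, which 0.929%, 0.437% and 0.255% of all windows of this length hold. The PU.1 motif GAGGAAGT (2.44% of windows), the GATA motif AGATAAG (2.78%), the Runx motif TGTGGTTT (1.57%), the E box CACGTG (6.05%) and the NF-Y motif CCAAT (34.5%) were searched in the same way. The 1 match was a CCAAT in the Bex6 window, which starts 97 bases before the gene. A match is a description of these letters, and the other windows were searched only over these bases.

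All values below are log2 probe-set expression as deposited, and the median over the whole table was 7.03. No detection calls came with the values, so a level near or below that median cannot be separated here from background signal. Medians per array ran between 6.96 and 7.18 and interquartile ranges between 2.09 and 2.73, the narrowest being GFP0 replicate 1. Arrays of the same level correlated with r of 0.928 to 0.990 over the 18194 genes, and arrays of different levels with r of 0.911 to 0.990. Kit, a marker of the sort gate, lay between 8.05 and 9.91 on the 14 arrays, above the table's median. The T cell marker Cd3e lay between 7.10 and 7.89, also above that median on every array. Among myeloid markers Itgam lay between 4.92 and 5.60, below the median on every array, while S100a8 reached 14.21, Ngp 13.90 and Lyz2 13.63. As a sign of RNA quality, the log2 difference between the 3′ and 5′ Actb controls lay between 4.39 and 4.51 in GFP0, 2.99 and 4.72 in GFP1, 3.57 and 3.93 in GFP2, 4.01 and 4.20 in GFP3, and 3.99 and 5.05 in GFP4. For the Gapdh controls it lay between 4.84 and 5.46 in GFP0, 5.02 and 6.52 in GFP1, and 5.43 and 5.81 in GFP2. In GFP3 it lay between 6.09 and 6.58, above both GFP0 arrays, and in GFP4 between 5.29 and 6.57.

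Bex6 was one of the brighter genes at the low end of the GFP scale and close to the table's median at the high end. Its probe set read 11.65 and 11.58 in GFP0, 10.99, 11.40 and 11.78 in GFP1, 10.72, 11.21 and 10.61 in GFP2, 9.62 and 8.69 in GFP3, and 8.12, 8.70, 7.08 and 4.53 in GFP4. All 4 GFP4 arrays and both GFP3 arrays lay below every array of GFP0, GFP1 and GFP2, while GFP3 and GFP4 overlapped through the GFP4 array at 8.70. The array at 4.53, GFP4 replicate 4, stood lowest. Group means were 11.61 ± 0.05 (SD, n = 2), 11.39 ± 0.40 (n = 3), 10.85 ± 0.32 (n = 3), 9.16 ± 0.66 (n = 2) and 7.11 ± 1.85 (n = 4) for GFP0 to GFP4. In brightness, the GFP4 mean exceeded 51.3% of all probe sets and the GFP0 mean 97.2%.

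The decline of Bex6 was small over the low levels and large over the high ones. Neighbouring levels differed by -0.22 ± 0.87 (moderated SE) for GFP1 against GFP0, -0.55 ± 0.77 for GFP2 against GFP1, -1.69 ± 0.87 for GFP3 against GFP2 and -2.05 ± 0.82 for GFP4 against GFP3. Of the difference between GFP4 and GFP0, 82.9% lay between GFP4 and GFP2 and 17.1% between GFP2 and GFP0. Neighbouring levels had overlapping arrays except GFP3 and GFP2. The slope was -1.12 ± 0.18 per level, and GFP4 differed from GFP0 by -4.51 ± 0.82. This is a 22.7-fold ratio of signal for GFP0 over GFP4, and since the GFP4 signal lies at the table's median it is not a measured fold of transcript. Without GFP4 replicate 4 the end difference was -3.64.

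Lrr1 was measured by 3 probe sets of unequal brightness, and all 3 had lower means in GFP4 than in GFP0. The brightest, 1452458_s_at, carries the array maker's suffix for probes that match several transcripts, and the files do not say which. It read 9.73 and 10.89 in GFP0, 10.12, 9.26 and 9.54 in GFP1, 9.62, 10.38 and 9.31 in GFP2, 8.98 and 7.43 in GFP3, and 6.74, 7.80, 7.05 and 6.16 in GFP4. The 8 arrays of GFP0, GFP1 and GFP2 overlapped with one another and lay above all 6 arrays of GFP3 and GFP4. Means were 10.31 ± 0.82 (n = 2), 9.64 ± 0.44 (n = 3), 9.77 ± 0.55 (n = 3), 8.21 ± 1.10 (n = 2) and 6.94 ± 0.68 (n = 4) for GFP0 to GFP4. The GFP4 mean exceeded 47.0% of all probe sets and the GFP0 mean 93.6%.

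As for Bex6, most of the decline of this Lrr1 probe set lay at the high levels, 84.1% of it between GFP4 and GFP2 and 15.9% between GFP2 and GFP0. The step of GFP3 against GFP2 was -1.56 ± 0.55 and that of GFP4 against GFP3 -1.27 ± 0.52, while GFP2 was higher than GFP1 by 0.13 ± 0.49 and GFP1 differed from GFP0 by -0.66 ± 0.55. The slope was -0.82 ± 0.12 per level. GFP4 differed from GFP0 by -3.37 ± 0.52, a 10.3-fold ratio of signal for GFP0 over GFP4, with the same limit.

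The second probe set, 1436922_at, was dim, with its lowest mean in GFP4 and its highest in GFP0. It read 7.01 and 6.93 in GFP0, 6.46, 5.83 and 5.75 in GFP1, 5.60, 7.24 and 6.28 in GFP2, 5.51 and 4.99 in GFP3, and 5.02, 4.14, 4.24 and 4.33 in GFP4. Apart from GFP2 replicate 2 at 7.24, all of these lie below the table's median. GFP4 and GFP0 did not overlap, and their difference in log2 signal was -2.54 ± 0.39, for which no fold is given at this brightness. The slope was -0.58 ± 0.09 per level.

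The remaining probe set, 1427506_at, varied little. It read 7.93 and 8.00 in GFP0, 7.56, 7.77 and 7.37 in GFP1, 7.99, 7.57 and 7.47 in GFP2, 7.64 and 7.41 in GFP3, and 6.80, 7.23, 7.52 and 7.47 in GFP4. Neighbouring levels overlapped apart from GFP1 and GFP0, and GFP4 lay below both GFP0 arrays, by -0.72 ± 0.23 in the means. The slope was -0.15 ± 0.05 per level. Over the 14 arrays, which share their levels, 1452458_s_at correlated with 1436922_at at r = 0.88 and with 1427506_at at r = 0.65. For deviations from the level means these became 0.34 and 0.05, and 1427506_at and 1436922_at correlated at -0.50. A mean over the 3 probe sets gave a slope of -0.52 and an end difference of -2.21, smaller in size than those of the brightest probe set.

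**Figure D1:**
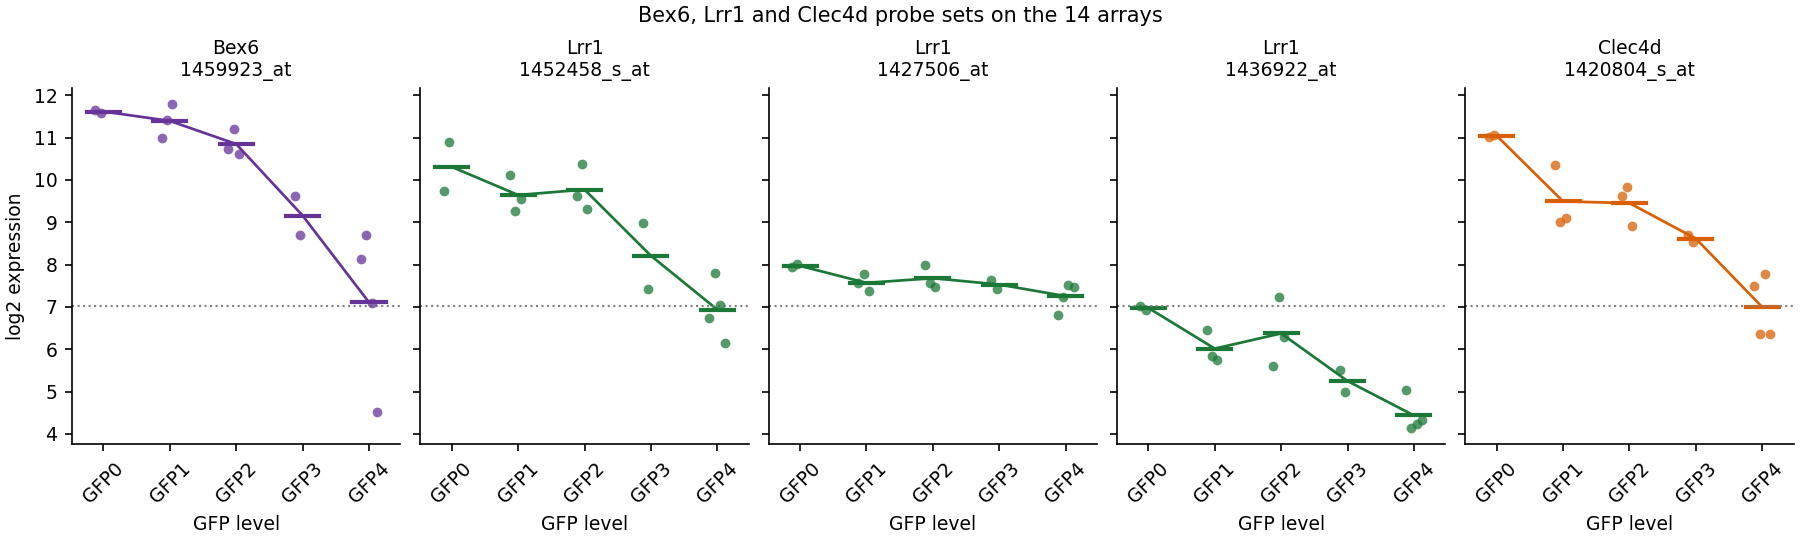
Log2 expression (vertical axis) of the 5 probe sets of Bex6, Lrr1 and Clec4d at the 5 GFP levels (horizontal axis), 1 point per array, with bars for level means joined by a line and a dotted line at the median of the table. Bex6, Clec4d and the Lrr1 probe set 1452458_s_at reach the median at GFP4, with means of 7.11, 6.99 and 6.94, while Lrr1 1427506_at stays between 6.80 and 8.00.

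Clec4d had its highest values in GFP0 and then a decline that began at the first step. Its probe set, which also ends in _s_at, read 11.01 and 11.07 in GFP0, 10.35, 9.02 and 9.11 in GFP1, 9.61, 9.84 and 8.90 in GFP2, 8.69 and 8.53 in GFP3, and 7.50, 6.35, 7.78 and 6.35 in GFP4. Only GFP1 and GFP2 overlapped; the GFP4 arrays lay below all others and the GFP0 arrays above all others. Means were 11.04 ± 0.04 (n = 2), 9.49 ± 0.75 (n = 3), 9.45 ± 0.49 (n = 3), 8.61 ± 0.11 (n = 2) and 6.99 ± 0.75 (n = 4) for GFP0 to GFP4. The GFP4 mean exceeded 48.5% of all probe sets and the GFP0 mean 95.9%.

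The steps of Clec4d were -1.55 for GFP1 against GFP0, -0.04 for GFP2 against GFP1, -0.84 for GFP3 against GFP2 and -1.62 for GFP4 against GFP3. The first step made up 38.3% of the difference between GFP4 and GFP0 and the last step 40.0%, with a plateau between GFP2 and GFP1. For Bex6 the first step made up 4.92%. For Lrr1 it made up 19.7% in 1452458_s_at, 37.8% in the dim 1436922_at and 56.2% in 1427506_at, which varied little. Whether the genes differ in this was not tested. The slope of Clec4d was -0.90 ± 0.10 per level, and GFP4 differed from GFP0 by -4.05 ± 0.46, a 16.5-fold ratio of signal for GFP0 over GFP4, again with a GFP4 signal at the table's median.

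Set against all genes, the slope was lower in limma's moderated test (Benjamini-Hochberg adjusted p under 0.05) for 195 of 18194 genes, or 1.07%, and higher for 414, or 2.28%. GFP4 was lower than GFP0 for 78 genes, or 0.429%. The 3 genes belong to both sets of lower genes in this fit, as their selection required. Those counts were 51 to 278 lower and 110 to 490 higher by slope without single arrays, and 25 and 65 with array quality weights. For GFP4 against GFP0, the 78 became 12 with only the arrays of these groups and 0 with array quality weights. Under those weights none of the 3 genes was called lower by end difference. At an unadjusted p under 0.05, 7.00% of all genes had a lower slope and 9.71% a higher one. Among all 18194 genes, Bex6 ranked 2, Clec4d 15 and Lrr1 21 from the lowest slope, and 1, 3 and 14 from the lowest end difference. In the filtered set, Bex6 ranked 1, Clec4d 4 and Lrr1 5 by slope, where Vmn2r84 at -0.67 was the last of the 8 kept and Btnl9 at -0.66 the next outside. By end difference Bex6 ranked 1, Clec4d 2 and Lrr1 6, with Dscc1 at -2.83 the last of the 10 kept and Cd300lb at -2.50 just outside. The median slope over all genes was -0.01.

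The shape of each decline is given as a description, since the end difference and the rank correlation used in the selection also bear on it. The quadratic component of the level means was -0.34 ± 0.15 (moderated SE) for Bex6, -0.21 ± 0.10 for Lrr1 and -0.07 ± 0.09 for Clec4d, a negative value meaning a steeper decline at the high levels. Over all genes, limma's F test for a departure from a straight line passed for 0 of 18194, or 0.00%, and 1275 had an unadjusted p under 0.05.

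Across the 14 arrays Bex6 and Lrr1 correlated at r = 0.92, Lrr1 and Clec4d at 0.88 and Bex6 and Clec4d at 0.83; the selection and the shared levels set much of this. For deviations from the level means, r was 0.58 for Bex6 and Lrr1, 0.32 for Lrr1 and Clec4d and 0.16 for Bex6 and Clec4d, also over 14 arrays. In RNA from sorted bulk samples, fewer cells expressing a gene and less RNA per cell cannot be told apart.

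Among the relatives of Bex6, several genes changed in the opposite direction. Of 11 listed Bex and Tceal genes 8 were measured; 3 rose over the levels by limma's test over all genes (2.28% of all genes did) and 0 fell, with a median slope of 0.14. At an unadjusted p under 0.05 the count was 4 higher and 0 lower (9.71% and 7.00% of all genes). Bex1 averaged 13.63 in GFP4 and 12.28 in GFP0 (slope 0.38 ± 0.06, adjusted p = 0.00357), and its GFP4 arrays lay between 13.37 and 13.81, its GFP0 arrays at 12.12 and 12.44. Bex4 averaged 9.92 in GFP4 and 8.19 in GFP0 (slope 0.48 ± 0.08, adjusted p = 0.00585). Bex2 averaged 9.14 in GFP4 and 8.06 in GFP0 (slope 0.26 ± 0.04, adjusted p = 0.00702). Every GFP4 array lay above both GFP0 arrays for these 3 and also for Tceal1, which did not pass, while Bex3, Tceal7, Tceal8 and Tceal9 overlapped. The share of all genes without such overlap was not counted. The slope test used the same arrays, so this adds no separate support.

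Bex3, the neurotrophin receptor partner, was bright at every level and had a mean of 12.52 in GFP4 and 12.66 in GFP0 (slope -0.02 ± 0.04, adjusted p = 0.883). Tceal1 had a slope of 0.36 ± 0.11 (adjusted p = 0.103) and Tceal9, among the brightest of the list, -0.06 ± 0.08 (adjusted p = 0.767). Over the 14 arrays Bex6 correlated at r = -0.63 with the mean of the Bex and Tceal list, and at -0.30 for deviations from the level means. The count of 3 was 3 or 4 when single arrays were left out, and 1 with array quality weights.

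**Figure D2:**
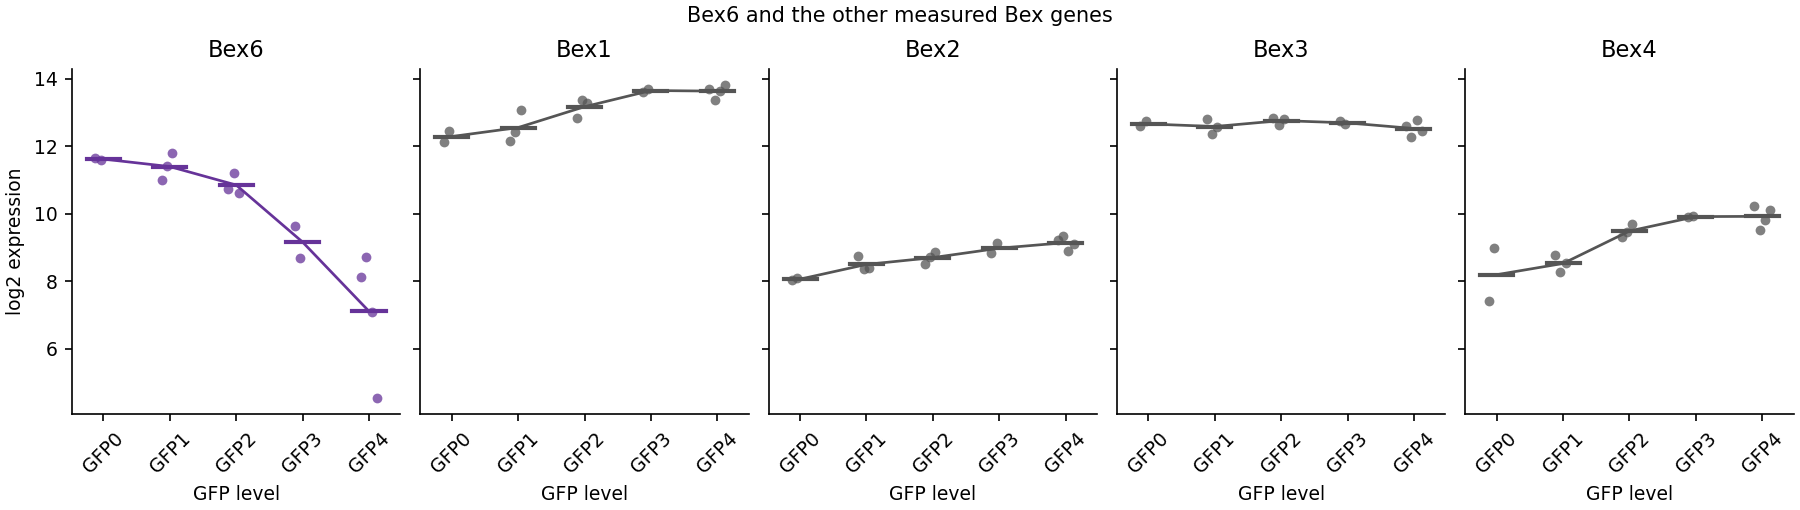
Log2 expression (vertical axis) of Bex6 and of Bex1, Bex2, Bex3 and Bex4 at the 5 GFP levels (horizontal axis), 1 point per array, with bars for level means joined by a line. Bex6 runs downward to a mean of 7.11 in GFP4, Bex1, Bex2 and Bex4 have higher means in GFP4 than in GFP0, and Bex3 lies near 12.52 to 12.66 at both ends.

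For Lrr1, the partners in its ligase did not pass the test. Of 15 listed genes of the CUL2 ligase and the NEDD8 machinery that activates it, 14 were measured and 0 passed in limma's test, with 2 lower and 1 higher at an unadjusted p under 0.05 (7.00% and 9.71% of all genes) and a median slope of 0.03. Cul2, the scaffold, averaged 8.84 in GFP4 and 8.88 in GFP0 (slope 0.02 ± 0.06, adjusted p = 0.901). Eloc, which encodes the Elongin C adaptor, had the smallest adjusted p of the list, 0.0755, at a slope of -0.22 ± 0.06. Without GFP1 replicate 2, the array with the lowest list mean, 1 gene of the list passed as lower.

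Among genes of the CMG helicase, the target of that ligase, all 11 listed were measured and 11 had negative slopes; 3 fell in limma's test (1.07% of all genes did) and 8 were lower at an unadjusted p under 0.05 (7.00% of all genes), with a median slope of -0.21. Gins1, a subunit of GINS, averaged 8.13 in GFP4 and 10.23 in GFP0 (slope -0.55 ± 0.08, adjusted p = 0.00328). Mcm5 averaged 11.69 in GFP4 and 12.73 in GFP0 (-0.29 ± 0.07, adjusted p = 0.0437), and Gins4 8.60 in GFP4 and 9.45 in GFP0 (-0.23 ± 0.06, adjusted p = 0.0475). Mcm5, like Mcm3, Mcm4 and Mcm6, was read from a probe set with the suffix _x_at. Mcm7, the brightest of the list and the subunit that the ligase marks, did not pass, with 12.94 in GFP4 and 13.53 in GFP0 (-0.15 ± 0.05, adjusted p = 0.102). The count was 1 when either GFP0 or GFP3 array, GFP1 replicate 1, GFP2 replicate 2 or any GFP4 array but replicate 2 was left out. It was also 1 with arrays centred on their medians, with every probe set taken by itself, with a replicate block or with the 3′ to 5′ covariates. With array quality weights it was 0, and with a regression on the numeric level 5.

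Of 8 genes that unload the helicase or protect the fork, 2 fell and 1 rose (1.07% and 2.28% of all genes did). Tipin, a partner of Timeless at the fork, averaged 8.71 in GFP4 and 10.82 in GFP0 (slope -0.46 ± 0.11, adjusted p = 0.0346), and Timeless 7.79 in GFP4 and 9.32 in GFP0 (-0.40 ± 0.10, adjusted p = 0.0422). Traip, a ubiquitin ligase that acts on the helicase in mitosis, was higher, at 7.94 in GFP4 and 6.71 in GFP0 (0.29 ± 0.05, adjusted p = 0.0138). This higher call was lost with the 3′ to 5′ covariates and with array quality weights. Vcp had a slope of 0.11 ± 0.09 (adjusted p = 0.571). The 2 lower calls became 0 with arrays centred on their medians or with the 3′ to 5′ covariates, and without GFP0 replicate 2, either GFP3 array or GFP4 replicate 4, and 1 without any other array but GFP1 replicate 3 and GFP4 replicate 3; the 1 higher call was lost without GFP0 replicate 1 or GFP3 replicate 2.

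Of 20 S phase genes 19 were measured; 9 fell (1.07% of all genes did) and 10 did not pass, while 19 had negative slopes and 17 were lower at an unadjusted p under 0.05 (7.00% of all genes), with a median slope of -0.31. Cdt1, a licensing factor of replication origins, averaged 9.13 in GFP4 and 11.20 in GFP0 (slope -0.44 ± 0.06, adjusted p = 0.00228). Rrm2, a subunit of ribonucleotide reductase, averaged 8.86 in GFP4 and 11.14 in GFP0 (-0.52 ± 0.11, adjusted p = 0.0214), and Dscc1, of an alternative clamp loader, 7.06 in GFP4 and 9.89 in GFP0 (-0.63 ± 0.13, adjusted p = 0.0264). Rrm1, Rfc5, Tk1, Prim1, Mcm10 and Pola1 were the other 6. Leaving out GFP0 replicate 1 gave a count of 5, GFP0 replicate 2 a count of 1, GFP3 replicate 2 also 1 and GFP4 replicate 4 a count of 3. With arrays centred on their medians 4 passed, with the 3′ to 5′ differences of Actb and Gapdh as covariates 2, and with array quality weights 1.

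The mean of the S phase list ran between 10.05 and 10.75 in GFP0, 10.20 and 10.69 in GFP1, 10.21 and 10.68 in GFP2, 9.76 and 10.06 in GFP3, and 8.51 and 9.45 in GFP4. Its arrays overlapped over the low levels and were lowest in GFP4. Of 19 measured genes of G2 and M phase, 0 passed in limma's test and 12 were lower at an unadjusted p under 0.05 (7.00% of all genes), with a median slope of -0.21; 2 passed without GFP4 replicate 2. Lrr1 correlated with the mean of the S phase list at r = 0.96, with that of the helicase list at 0.96, with G2 and M phase at 0.81 and with the ligase list at 0.31, over 14 arrays that share their levels. For deviations from the level means these were 0.90, 0.81, 0.71 and 0.38. For Bex6 the correlation with the S phase mean was 0.90 (deviations 0.55), and for Clec4d 0.85 (deviations 0.46). Whether the 3 genes differ in their correlation with the S phase mean was not tested.

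**Figure D3:**
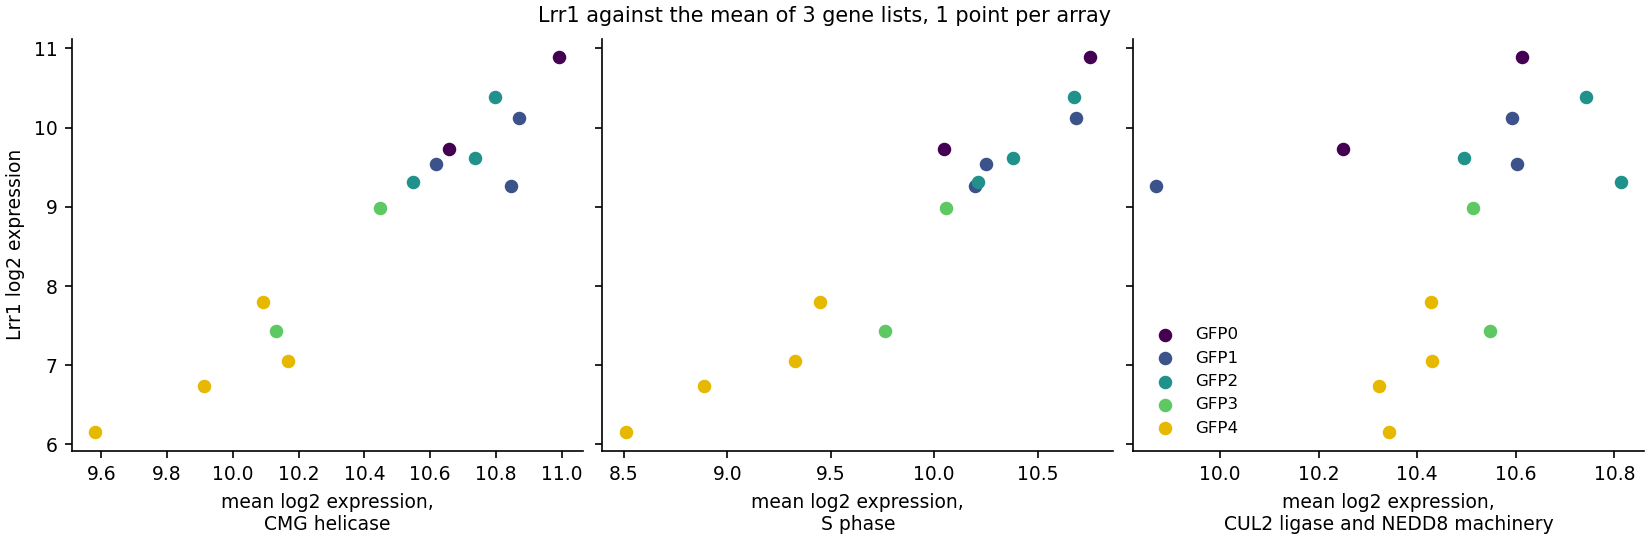
Log2 expression of Lrr1 (1452458_s_at, vertical axis) against the mean log2 expression of the CMG helicase, S phase, and CUL2 ligase and NEDD8 lists (horizontal axes), 1 point per array, coloured by GFP level. GFP4 arrays lie at the lower left for the helicase and S phase lists, with r of 0.96 for each over 14 arrays, and the ligase list shows an r of 0.31.

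For Clec4d, related lectins of the myeloid series were mostly dim and varied between arrays. Of 15 listed 11 were measured, 6 of them below the table's median; 11 had negative slopes, 1 fell, and 2 were lower at an unadjusted p under 0.05 (1.07% and 7.00% of all genes), with a median slope of -0.08. The 1 that fell, Clec10a, a galactose-binding lectin, averaged 6.68 in GFP4 and 7.84 in GFP0 (slope -0.33 ± 0.08, adjusted p = 0.0402). The count was 0 when any single array other than GFP1 replicate 2 and GFP4 replicate 2 was left out, and 2 without GFP4 replicate 2. With arrays centred on their medians or scaled by cyclic loess it was 0.

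Clec4e, the partner of Clec4d, did not pass, with a slope of -0.37 ± 0.13 (adjusted p = 0.161). It read 8.48 and 8.46 in GFP0, 8.48, 8.47 and 8.50 in GFP1, 7.86, 8.77 and 8.11 in GFP2, 7.98 and 7.06 in GFP3, and 6.86, 8.93, 6.43 and 6.26 in GFP4. GFP4 replicate 2, at 8.93, was the highest of all 14 arrays, and the other GFP4 arrays were the lowest. On that array Clec4d read 6.35, as low as any. Clec4a2 ranged between 5.60 and 10.50 over the arrays (slope -0.40 ± 0.25, adjusted p = 0.471), and Clec7a (Dectin-1) had a slope of -0.01 ± 0.21 (adjusted p = 0.989).

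In the signalling list of Fcer1g, Syk and Card9, 10 of 12 genes were measured and 0 passed in limma's test, with 1 lower and 2 higher at an unadjusted p under 0.05 (7.00% and 9.71% of all genes) and a median slope of 0.07. Fcer1g averaged 8.86 in GFP4 and 9.59 in GFP0 (slope -0.28 ± 0.13, adjusted p = 0.307), Syk 10.37 in GFP4 and 10.53 in GFP0 (-0.06 ± 0.05, adjusted p = 0.655), and the related adaptor Tyrobp 10.23 in GFP4 and 12.11 in GFP0 (-0.63 ± 0.22, adjusted p = 0.147). Without GFP4 replicate 2, 1 gene passed as lower, and without GFP1 replicate 2, 1 passed as higher.

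**Figure D4:**
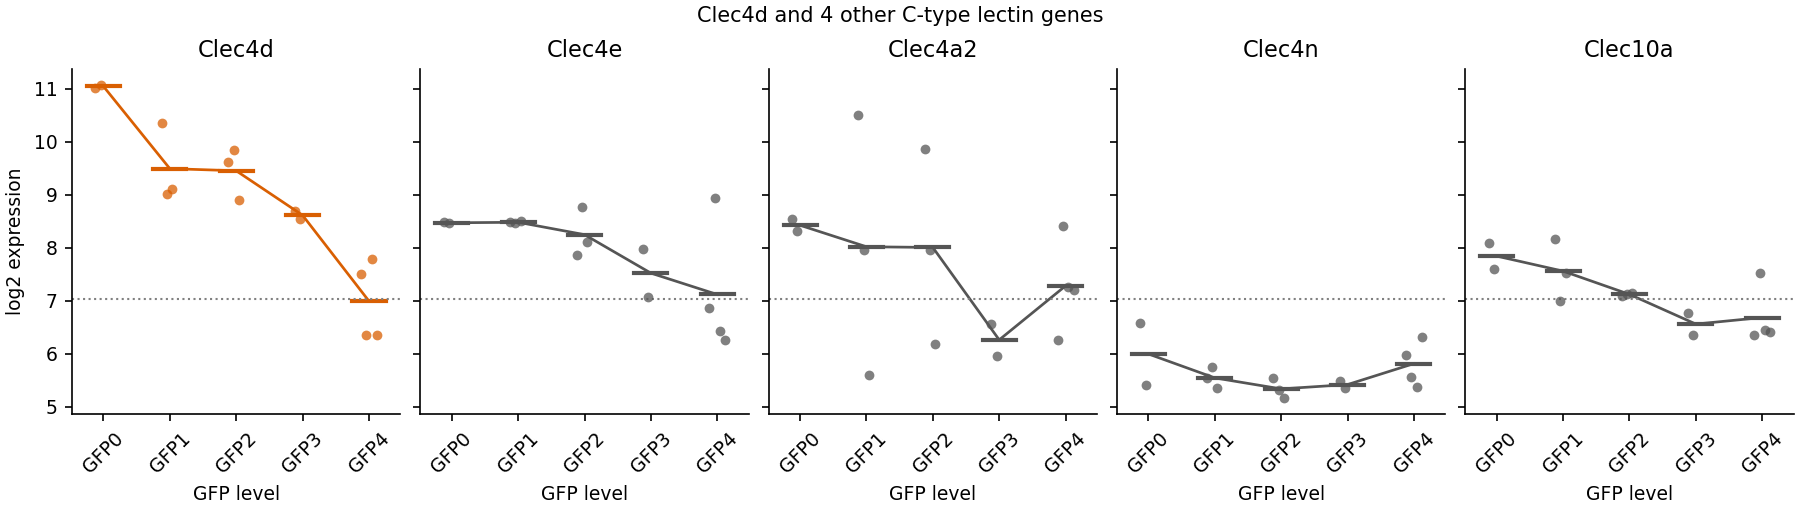
Log2 expression (vertical axis) of Clec4d and of the C-type lectin genes Clec4e, Clec4a2, Clec4n and Clec10a at the 5 GFP levels (horizontal axis), 1 point per array, with bars for level means joined by a line and a dotted line at the median of the table. Clec4d has a mean of 6.99 in GFP4 and 11.04 in GFP0, whereas Clec4n lies below the median on all arrays and Clec4e has one GFP4 array at 8.93.

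Most listed markers of mature blood cells did not pass the test. In each list but that of megakaryocytes and platelets, however, the share that fell was above the 1.07% of all genes. These counts changed between settings. Of 20 listed genes of neutrophils, monocytes and macrophages 18 were measured; 1 fell (1.07% of all genes did), 18 had negative slopes and 11 were lower at an unadjusted p under 0.05 (7.00% of all genes), with a median slope of -0.43. The 1 that fell, Ltf (lactoferrin, of neutrophil granules), averaged 7.13 in GFP4 and 10.12 in GFP0 (adjusted p = 0.0286). The list mean ran between 9.12 and 10.49 in GFP0, 7.46 and 9.84 in GFP1, 7.20 and 9.38 in GFP2, 7.26 and 7.86 in GFP3, and 7.27 and 9.10 in GFP4. Neighbouring levels overlapped, while every GFP3 and GFP4 array lay below both GFP0 arrays. The brightest was Lyz2 (lysozyme), with 11.33 in GFP4 and 12.34 in GFP0 (adjusted p = 0.522), and S100a8, a neutrophil alarmin, had 9.52 in GFP4 and 12.68 in GFP0 (adjusted p = 0.246). Clec4d correlated with this list mean at r = 0.57 (deviations 0.32) over the 14 arrays. Its r was higher with the means of T and NK cells, 0.71 (deviations 0.15), and erythroblasts, 0.69 (deviations 0.31). It was also higher with mast cells and basophils, 0.64 (deviations 0.29), and B cells, 0.62 (deviations 0.07). With megakaryocytes and platelets it was 0.30 (deviations 0.20). Whether these values differ was not tested. With the Actb 3′ to 5′ difference Clec4d correlated at -0.50 (deviations -0.74). For Bex6 and Lrr1 the values for Actb were -0.42 (deviations -0.03) and -0.51 (deviations -0.33). With the Gapdh 3′ to 5′ difference they were -0.45 (deviations -0.40) for Bex6, -0.46 (deviations -0.38) for Lrr1 and -0.43 (deviations -0.31) for Clec4d. With the 3′ to 5′ differences of Actb and Gapdh as covariates the slopes were -0.89 for Clec4d, -0.91 for Bex6 and -0.73 for Lrr1. The part of neutrophils, monocytes and macrophages in the decline of Clec4d was not tested. When GFP0 replicate 1, a GFP3 array or GFP4 replicate 4 was left out, 0 passed; without GFP1 replicate 3 it was 4, and without GFP4 replicate 2 it was 5.

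Of 11 measured genes of granulocyte and monocyte progenitors (12 listed) 2 fell, Cst7 (slope -1.07 ± 0.23, adjusted p = 0.0287) and Plac8 (-0.52 ± 0.11, adjusted p = 0.0288), with a median slope of -0.66; Clec4d correlated with the list mean at 0.53 (deviations 0.09). Of 9 mast cell and basophil genes 3 fell, Cpa3, Ms4a2 and Fcer1a, of 9 B cell genes 2, Vpreb1 and Ighm, of 8 T and NK cell genes 1, Nkg7, and of 7 erythroblast genes 3, Gata1, Klf1 and Car1, where 1.07% of all genes fell. With the 3′ to 5′ covariates 0 of the neutrophil, progenitor, mast cell, T and NK cell and erythroblast calls were left, and the B cell count was 1. Of 9 genes of megakaryocytes and platelets 0 passed in limma's test, with 3 lower and 2 higher at an unadjusted p under 0.05 (7.00% and 9.71% of all genes). At that threshold 8 progenitor genes were lower and 1 higher, and 7 mast cell and basophil genes were lower. The lists of B cells, T and NK cells, and erythroblasts each had 3 lower genes. Slopes were negative for 10 of 11 progenitor genes and 9 of 9 mast cell and basophil genes. The part of any of these cells in the values of Bex6, Lrr1 and Clec4d was not tested. Of the progenitor, mast cell, B cell, T and NK cell calls, 0 were left without GFP0 replicate 1 or GFP3 replicate 2. The progenitor count was 6 without GFP4 replicate 2, 1 without GFP3 replicate 1, and 0 without GFP0 replicate 2, GFP4 replicate 3 or GFP4 replicate 4. The mast cell count was 0 without GFP0 replicate 2 and 1 without GFP4 replicate 4, the B cell count 1 without GFP3 replicate 1, GFP4 replicate 3 or GFP4 replicate 4, and the T and NK cell count 0 without GFP4 replicate 1 and 2 without GFP4 replicate 3. For erythroblasts it was 1 without GFP0 replicate 2, GFP1 replicate 1 or 2, GFP2 replicate 2, either GFP3 array, or GFP4 replicate 3 or 4.

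In the other direction, 5 of 10 measured LSK and stem cell markers rose (2.28% of all genes did), with a median slope of 0.32. They were Mllt3 (slope 0.81 ± 0.07, adjusted p = 0.000158), Procr (0.78 ± 0.11, adjusted p = 0.00314), Mecom (0.76 ± 0.11, adjusted p = 0.00314), Hlf (0.65 ± 0.10, adjusted p = 0.00341) and Meis1 (0.40 ± 0.08, adjusted p = 0.0141). With array quality weights the count of 5 became 3. Clec4d correlated with the mean of this list at r = -0.75 over the 14 arrays and at -0.56 for deviations from the level means. For Bex6 the values were -0.67 (deviations -0.29) and for Lrr1 -0.66 (deviations -0.28). At both ends of the scale Flt3 and Cd34, which mark multipotent progenitors, were bright, Flt3 at 10.75 in GFP4 and 10.35 in GFP0 and Cd34 at 10.15 in GFP4 and 10.57 in GFP0; neither passed.

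Of the genes whose mean reached the table's median, those most like each of the 3 were named by Pearson correlation over the 14 arrays, a description of arrays that share their levels. For Bex6 these were Btla (0.940), an inhibitory receptor of lymphocytes, Mcm7 (0.939), Pole2 (0.936), a subunit of DNA polymerase epsilon, Mcm10 (0.916) and Nipsnap3b (0.916). For Lrr1 they were Gart (0.964), an enzyme of purine synthesis, Adk (0.958), adenosine kinase, Pclaf (0.957), a PCNA-associated factor, Gins1 (0.951) and Rnaseh2b (0.949), a subunit of ribonuclease H2. For Clec4d they were Cbx5 (0.942), heterochromatin protein HP1 alpha, Gins1 (0.926), Srsf3 (0.925), a splicing factor, Brcc3 (0.923), a deubiquitinase, and H2az1 (0.921), a histone variant.

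With the level means taken out, other genes led. For Bex6 they were Mcm6 (0.950), Btla (0.896), Rrp7a (0.888), Cct3 (0.879) and Tedc1 (0.873), so that Btla stood in both lists. For Lrr1 they were Noc4l (0.937), Rpf2 (0.934), Gart (0.926), Mrpl47 (0.917) and Rnaseh2b (0.892), with Gart and Rnaseh2b in both. For Clec4d they were Dele1 (0.948), Bid (0.945), Mtln (0.943), Spata24 (0.927) and Bola1 (0.920), none of which was among the 5 named on the values themselves.

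The neighbours of the 3 genes on their chromosomes, 3 measured protein-coding genes on each side in the RefSeq gene table, were tested for their slopes: of 18 neighbours 0 passed in limma's test, and Pole2 and Clec4e, 2 of them, were lower at an unadjusted p under 0.05. Since 1.07% of all genes passed as lower and 7.00% were lower at that unadjusted threshold, these counts are near the background. Pole2, the third gene after Lrr1 in coordinate order, averaged 8.82 in GFP4 and 10.79 in GFP0 (slope -0.50 ± 0.13, adjusted p = 0.0546). Clec4e, described above, lies directly after Clec4d in the lectin cluster. Before Clec4d lie Clec4n (slope -0.05 ± 0.07), Clec4a2 and Clec4b1 (-0.08 ± 0.04), and Clec4b1 averaged 4.97 in GFP4 and 5.37 in GFP0, well below the table's median. The neighbours of Bex6, Pigx, Cep19, Nrros, Fbxo45, Wdr53 and Smco1, had slopes between -0.10 for Wdr53 and 0.09 for Fbxo45, against -1.12 for Bex6.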

How the data were processed

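Per the labels' protocols, RNA of 14 sorted samples was amplified, biotin-labelled and hybridised to 1-colour Affymetrix arrays. The submitters' processing notes name GCOS, RMA and affy. The authors deposited 1 log2 value per probe set and array, between 2.69 and 15.1, and these were analysed without further scaling. The genome build is not given in the sources used here. Each column was matched to 1 sample by its label.

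Of 45101 probe sets, 34958 named 1 gene symbol, 932 several and 9211 none; 34754 matched a RefSeq gene by gene ID. A gene was read from its probe set of highest mean (18194 genes), and all 5 probe sets of the 3 genes are reported. For other genes, such as Rrm2, that probe set could carry the suffix _x_at. In limma 3.58.1 (R 4.3.3), group means were fitted to all 14 arrays (9 residual and 3.99 prior degrees of freedom), with contrasts for the slope (equal weight per level), GFP4 minus GFP0 and the departure from a line (moderated F test). P-values were Benjamini-Hochberg adjusted over all genes, two-sided, at a threshold of 0.05; the fit was tested on simulated data. The 3 genes, the gene lists and the rules were chosen with earlier results of these data known.

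Genes named besides these 3 are the 5 most correlated with each, the 3 neighbours on each side, and list members that passed, were brightest, or are a direct partner. Alternatives were array centring, cyclic loess, other probe-set rules, a filter on dim genes, array weights, a replicate block, 3′ to 5′ covariates, leaving out arrays and other models. Figures were drawn with matplotlib 3.10.9.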

Additional observations from a re-analysis of the deposited data

Results flagged for a closer look

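One value stood apart from its group. The mean of the granulocyte and monocyte progenitor list was 8.69, 11.57, 9.13 and 8.89 in the 4 GFP4 arrays, and the gap of replicate 2 to its nearest neighbour was 0.848 of the whole range, above Dixon's 95% critical value for 4 arrays. In the same array Clec4d was 6.35, Bex6 8.70 and Lrr1 7.80. Such a gap was looked for in 21 groups of values, of which chance alone would pick out about 1.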

How the results depend on the processing

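The slopes of Bex6, Lrr1 and Clec4d kept their sign under every alternative run. With single arrays left out they ran from -1.23 to -0.95 for Bex6, -0.93 to -0.70 for Lrr1 and -0.95 to -0.85 for Clec4d, and the difference between GFP4 and GFP0 from -5.04 to -3.64, -3.95 to -2.79 and -4.31 to -3.83. A mean over the 3 probe sets of Lrr1 gave -0.52 and -2.21. The number of genes passing moved more. For the slope, 609 became 90 with array weights, 165 with 3′ to 5′ covariates, 156 without both arrays numbered 1 of GFP0 and GFP4, and 182 to 768 without single arrays (193 without GFP0 replicate 1, 374 without GFP0 replicate 2, 399 and 182 without GFP3 replicates 1 and 2, 283 without GFP4 replicate 4). For GFP4 minus GFP0, 306 became 2, 142 and 41 under the same first 3 settings, 58 with only the arrays of these groups, and 51 to 363 without single arrays (51 and 167 without GFP0 replicates 1 and 2, 185 without either GFP3 array, 118 without GFP4 replicate 4). For the departure, 0 became 1 without both arrays numbered 1, and 0 to 1 without single arrays (1 without either GFP0 array or GFP1 replicate 3). The causes were not tested.

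A replicate block gave slopes of -0.94 for Bex6, -0.75 for Lrr1 and -0.85 for Clec4d, 337 genes for the slope, 67 for GFP4 minus GFP0 and 1 S phase gene in place of 9. Deviations correlated above 0.1 in 9 of 23 pairs of the same number (r of -0.26 to 0.58) and 20 of 54 of different numbers (-0.63 to 0.48). The labels do not say whether equal numbers pair the arrays, and these counts cannot decide it. Levels with 2 arrays and the lack of detection calls limit all values near the table's median.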
